A study of Mus musculus with 20 samples.

Results

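The cytosolic iron-sulfur assembly genes *Ciapin1*, *Ndor1*, *Nubp1*, *Nubp2* and *Mms19* and the iron-sulfur DNA enzymes *Ercc2*, *Pold1*, *Pole*, *Rtel1* and *Nthl1* were followed in the hearts of mice on an iron-deficient diet. These 10 genes were chosen by name from the 23420 genes of the count table, and all 10 were among the 13590 genes that passed the filter on low counts. Messenger RNA was sequenced from whole hearts of 20 male, wild type C57BL/6 mice aged 9 weeks. The 10 mice of the control group (CD) had received a control diet, and the 10 mice of the iron-deficient group (ID) a diet low in iron, each for 6 weeks from an age of 3 weeks. The series' design text calls the ID mice anemic. For the iron content of the deficient diet, the labels conflict, with less than 2 ppm in the treatment field and more than 2 ppm in the treatment protocol. The study's methods give a low range that starts at this value and call the control diet iron-adjusted. The study's methods exclude a contaminated sample from each group without naming it, so every mouse was kept, and the test was repeated without each pair of 1 CD and 1 ID mouse.

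Iron-sulfur clusters are cofactors made of iron and sulfide. Mitochondria build clusters for their own proteins and export a sulfur-containing compound from which the cytosolic assembly machinery makes clusters for proteins of the cytosol and nucleus. NUBP1 and NUBP2 form the scaffold on which a new cluster is put together, NDOR1 and CIAPIN1 pass electrons from NADPH to this step, and MMS19 belongs to the targeting complex that hands finished clusters to their recipients. Among those recipients are ERCC2 (XPD), a DNA helicase of the transcription and repair factor TFIIH, POLD1 and POLE, the catalytic subunits of DNA polymerases delta and epsilon, RTEL1, a helicase that unwinds structures at telomeres, and NTHL1, a glycosylase that removes oxidised pyrimidines from DNA. Most cardiomyocytes of the grown heart no longer divide, so replication enzymes there belong largely to other cells of the tissue.

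Without any correction, 6 of the 10 genes were higher in ID hearts and 0 were lower, by edgeR's quasi-likelihood test at an adjusted p below 0.05. Of all 13590 tested genes, 35.0% were higher and 32.5% lower by the same call. The higher genes were the scaffold genes *Nubp1* and *Nubp2*, the electron donor gene *Ciapin1*, the helicase gene *Ercc2*, the polymerase gene *Pold1* and the glycosylase gene *Nthl1*, and their fitted levels rose by between 17.3% and 50.1%. *Ndor1*, *Mms19*, *Pole* and *Rtel1* did not pass the test. The median log2 fold change (ID against CD) was 0.25 over the 10 genes and 0.02 over all tested genes. DESeq2 also called 6 of the 10 higher, against 34.5% of tested genes. The change of a gene depended on its length and base composition across the whole table. With and without corrections for these, described further on, *Ciapin1* and *Nubp2* were called higher, 2 of the 10 against 14.1% of tested genes.

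The count table places the genes on mm10 as follows. *Ciapin1* lies on chromosome 8 (94819818 to 94838340, minus strand), *Ndor1* on chromosome 2 (25244813 to 25255414, minus strand), *Nubp1* on chromosome 16 (10411938 to 10424425, plus strand), *Nubp2* on chromosome 17 (24882611 to 24886350, minus strand) and *Mms19* on chromosome 19 (41943707 to 41981136, minus strand). *Ercc2* lies on chromosome 7 (19382039 to 19395692, plus strand), *Pold1* on the same chromosome (44532744 to 44548815, minus strand), *Pole* on chromosome 5 (110286319 to 110337453, plus strand), *Rtel1* on chromosome 2 (181319724 to 181356616, plus strand) and *Nthl1* on chromosome 17 (24632682 to 24638838, plus strand). Their exonic length, over which read pairs were counted, ran from 1080 bp in 6 exon blocks for *Nthl1* to 7129 bp in 49 exon blocks for *Pole*.

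Promoter sequences of the RefSeq table for GRCm38.p6, the assembly that mm10 stands for, matched 9 of the 10 genes, and that of *Pole* is not analysed here. Over the 250 bases before the start, GC content was between 47.6% and 72.0% in these 9 genes, against a median of 52.4% over 32817 promoters, and the number of CpG dinucleotides was between 10 and 29, against a median of 6. The GC box core GGGCGG, searched on both strands, was found in 8 of the 9, and in 32.7% of all promoters. The CCAAT box was found in 5 of the 9 (33.8% of all promoters), the ETS core CCGGAAG in 2 (6.90%) and the TATA box letters TATAAA in 0 (12.4%). The letters ACGTG, the core of the hypoxia response element, were present upstream of *Mms19* and *Pold1*, and in 16.6% of all promoters. These matches are descriptions of the sequence and not evidence of binding.

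The upstream bases of both scaffold genes and of *Pold1* are given because these genes were higher in ID hearts and hold different motifs. They are written 5′ to 3′ on the strand of the gene, and capitals mark the GC box core GGGCGG, the CCAAT box (printed as ATTGG where it lies on the other strand) and the hypoxia core ACGTG. The 250 bases cover chr16:10411688-10411937 for *Nubp1*, chr17:24886351-24886600 for *Nubp2* and chr7:44548816-44549065 for *Pold1*, on mm10.
Nubp1: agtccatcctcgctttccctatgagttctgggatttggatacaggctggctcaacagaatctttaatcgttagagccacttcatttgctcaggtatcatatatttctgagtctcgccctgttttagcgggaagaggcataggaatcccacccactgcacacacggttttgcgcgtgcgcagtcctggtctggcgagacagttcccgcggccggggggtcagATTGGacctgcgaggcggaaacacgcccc
Nubp2: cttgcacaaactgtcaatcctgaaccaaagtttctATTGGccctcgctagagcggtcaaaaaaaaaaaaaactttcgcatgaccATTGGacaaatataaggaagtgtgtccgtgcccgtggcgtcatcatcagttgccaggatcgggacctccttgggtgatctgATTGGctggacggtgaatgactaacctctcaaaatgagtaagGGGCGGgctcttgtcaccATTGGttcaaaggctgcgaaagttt
Pold1: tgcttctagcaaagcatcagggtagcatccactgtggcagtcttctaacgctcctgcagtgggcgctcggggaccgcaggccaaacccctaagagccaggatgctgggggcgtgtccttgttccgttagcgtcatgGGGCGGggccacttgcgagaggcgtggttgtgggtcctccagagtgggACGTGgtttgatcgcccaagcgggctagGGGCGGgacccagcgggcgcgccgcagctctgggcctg
*Nubp2* held 4 CCAAT boxes and 1 GC box, *Nubp1* 1 CCAAT box and 0 GC boxes, and *Pold1* 2 GC boxes and 1 ACGTG.

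For 6 of the 10 genes, another gene started within 1 kb on the opposite strand, so that the pair shares its upstream sequence. The shortest of these shared stretches are given in full, on the strand of the gene named first, with GGGCGG in capitals. The bases between *Ciapin1* and *Coq9* are chr8:94838341-94838416, those between *Ndor1* and *Tmem203* are chr2:25255415-25255438, and those between *Nthl1* and *Tsc2* are chr17:24632630-24632681.
Ciapin1 to Coq9: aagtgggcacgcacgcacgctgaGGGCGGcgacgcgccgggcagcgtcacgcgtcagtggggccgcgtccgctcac
Ndor1 to Tmem203: gctggcgcagttgaaacgcgtcat
Nthl1 to Tsc2: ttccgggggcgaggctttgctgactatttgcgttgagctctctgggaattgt
These stretches are 76, 24 and 52 bases long, and the expression of the 2 genes on either side of each is compared below.

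Between 6797180 and 8960688 read pairs per mouse were assigned to genes in the CD group, and between 6682177 and 7833916 in the ID group. Levels are given in CPM, scaled to the effective library size of edgeR. A level in a whole heart cannot tell fewer cells of a type from less RNA per cell. Cardiomyocyte markers were present in every heart, with a summed level between 4216 and 5076 CPM in CD and between 3672 and 5199 CPM in ID hearts. Of these 7 markers, 2 were called higher and 1 lower, against 35.0% and 32.5% of tested genes. After duplicate removal *Myh6* had between 10013 and 10651 read pairs in every mouse, a narrower range than that of the totals. The 2 markers called higher were also narrow, *Tnni3* with 1513 to 1711 read pairs and *Myl2* with 1303 to 1512. The CPM of these markers therefore varied largely with library size. *Ryr2*, the marker called lower, had 6920 to 15723 read pairs. The 10 genes rested on between 24 read pairs (the lowest mouse for *Nthl1*) and 1217 read pairs (the highest for *Ciapin1*) per mouse. Coverage after duplicate removal did not exceed 0.299 read pairs per exonic base in any of them.

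Levels per exonic length were compared between genes in CPM per kb. In CD hearts, *Ciapin1* (26.0 ± 2.50, SD, n = 10) and *Nubp2* (25.9) had the highest levels and overlapped each other. *Mms19* followed at 17.5, separate from its neighbours in the order. *Ercc2* (11.2), *Pold1* (11.03), *Ndor1* (8.88) and *Nubp1* (8.02) each overlapped the next, as did *Rtel1* (4.82) and *Nthl1* (3.78). *Pole* was lowest at 1.301 CPM per kb, below every other gene of the set without overlap and at the 10.2 percentile of tested genes. *Ciapin1* was at the 66.8 percentile. In ID hearts *Nubp2* (35.5 CPM per kb) stood above *Ciapin1* (31.4), with overlapping ranges, and *Pole* remained lowest at 1.28.

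**Figure D1:**
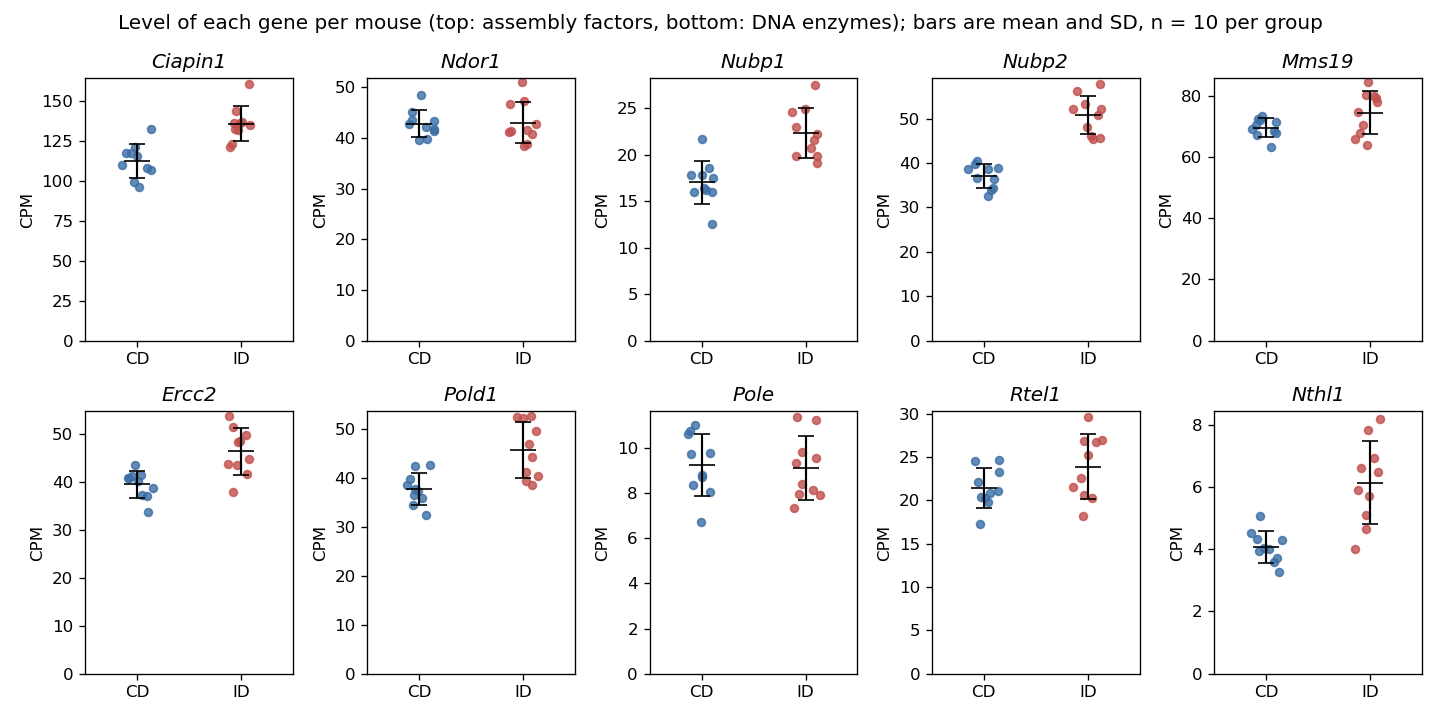
Level of each gene in CPM (vertical axes, each starting at 0) in the individual CD and ID mice, with the mean and SD of 10 mice per group as bars. *Nubp2* is the gene whose ID mice, from 45.5 CPM upwards, all lie above the CD mice, at most 40.5 CPM, while the groups overlap in the other 9 genes.

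Of the assembly genes, *Nubp2* had the largest fold change without correction, and with the length correction it had the smallest of the 10. Its level in CD hearts ran from 32.5 CPM through a median of 37.6 to 40.5 CPM. In ID hearts it ran from 45.5 through 51.5 to 57.8 CPM, so that the groups did not overlap, though they did with the length correction. It was the 1 gene of the 10 for which this held, and 4.97% of tested genes had every ID mouse above every CD mouse. The mean was 37.0 ± 2.73 CPM in CD and 50.8 ± 4.38 CPM in ID hearts (SD, n = 10), and the fitted level rose by 37.1%, a log2 fold change of 0.46 (standard error 0.06, edgeR adjusted p = 5.1e-07).

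*Nubp1*, its partner in the scaffold, had a lower level and a similar change. CD mice ran from 12.6 CPM through a median of 17.0 to 21.7 CPM, and ID mice from 19.1 through 21.9 to 27.5 CPM. All 10 ID mice were above the CD mean and 5 of them above the highest CD mouse. The log2 fold change was 0.39 (standard error 0.08, edgeR adjusted p = 0.00028). Of its exonic bases, 23.2% are shared with *Tvp23a* on the opposite strand, and counting did not use strand. *Tvp23a* had 3.05 ± 0.695 CPM in CD and 3.15 ± 0.970 CPM in ID hearts (SD, n = 10).

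*Ciapin1* encodes an iron-sulfur protein that receives electrons from NDOR1. Its level ran from 96.2 CPM through a median of 113 to 133 CPM in CD hearts and from 122 through 136 to 161 CPM in ID hearts. All 10 ID mice were above the CD mean, and 7 were above the highest CD mouse. The log2 fold change was 0.27 (standard error 0.05, edgeR adjusted p = 0.00014), a rise of 20.9% in the fitted level.

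*Ndor1*, the reductase that feeds electrons to CIAPIN1, had nearly equal means. CD mice ran from 39.6 CPM through a median of 42.6 to 48.5 CPM, and ID mice from 38.4 through 41.5 to 51.1 CPM. The groups overlapped almost throughout, with 3 of 10 ID mice above the CD mean. The log2 fold change was 0.005 (standard error 0.05, edgeR adjusted p = 0.94).

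*Mms19*, of the targeting complex, ran from 63.3 CPM through a median of 69.8 to 73.5 CPM in CD hearts and from 63.9 through 76.4 to 84.6 CPM in ID hearts. The ID mice were more spread than the CD mice, with an SD of 7.02 against 3.06 CPM, and 6 of them were above the highest CD mouse. The difference did not pass the test (log2 fold change 0.10, standard error 0.05, edgeR adjusted p = 0.085). It passed in 12 of the 100 fits that left out a mouse of each group, and in the fits without ID 3 (0.12, adjusted p = 0.027) or without ID 4 (0.12, adjusted p = 0.039) alone. Of the exonic bases of *Mms19*, 10.01% are shared with *Zdhhc16* on the opposite strand.

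Of the DNA enzymes, *Nthl1* had the largest fold change without correction, and the smallest of the 5 with the length correction. It ran from 3.28 CPM through a median of 4.03 to 5.08 CPM in CD hearts, and from 3.999 through 6.21 to 8.20 CPM in ID hearts. Of the 10 ID mice, 9 were above the CD mean and 8 above the highest CD mouse. The level rose by 50.1% (log2 fold change 0.59, standard error 0.13, edgeR adjusted p = 0.00027). Between 24 and 62 read pairs per mouse stand behind these values, the fewest of the set.

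*Pold1* ran from 32.4 CPM through a median of 37.5 to 42.7 CPM in CD hearts and from 38.5 through 45.6 to 52.6 CPM in ID hearts. All 10 ID mice were above the CD mean, and 6 were above every CD mouse. The log2 fold change was 0.28 (standard error 0.07, edgeR adjusted p = 0.0012). *Pole*, the other replicative polymerase gene, ran from 6.72 CPM through a median of 9.29 to 11.1 CPM in CD hearts and from 7.37 through 8.88 to 11.4 CPM in ID hearts. Its groups covered nearly the same range, and the log2 fold change was -0.03 (standard error 0.10, edgeR adjusted p = 0.84).

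The helicase gene *Ercc2* ran from 33.7 CPM through a median of 40.6 to 43.6 CPM in CD hearts and from 37.9 through 46.6 to 53.8 CPM in ID hearts. Of the ID mice, 8 were above the highest CD mouse. The log2 fold change was 0.23 (standard error 0.06, edgeR adjusted p = 0.0018). The exons of *Ercc2* share 585 bp, or 16.5% of its exonic length, with *Klc3* on the opposite strand, and 11 bp with *Mir343*. *Klc3* had a mean of 0.350 CPM in CD and 0.626 CPM in ID hearts and was below the filter, as was *Mir343*.

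The second helicase gene, *Rtel1*, ran from 17.2 CPM through a median of 21.0 to 24.6 CPM in CD hearts and from 18.2 through 23.9 to 29.6 CPM in ID hearts. The ID mice reached higher, with 5 above every CD mouse, but others lay within the CD range. The difference did not pass the test (log2 fold change 0.16, standard error 0.09, edgeR adjusted p = 0.11). It passed in 7 of the 100 fits without a mouse of each group and in the fit without ID 2 (0.19, adjusted p = 0.041). The 6 genes called higher in all mice were called in 100 of these 100 fits. Each of these fits called between 8572 and 9379 tested genes in either direction, and the share of genes called in every fit was not counted.

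The numbers in the column names of the count table form 2 unbroken runs, the first with 5 CD and 7 ID mice and the second with 5 CD and 3 ID mice. Nothing in the labels says what they stand for. Within the first run, 6 of the 10 genes were higher in ID hearts, against 30.2% of tested genes, with log2 fold changes of 0.29 for *Ciapin1*, 0.35 for *Nubp1*, 0.41 for *Nubp2*, 0.23 for *Ercc2*, 0.28 for *Pold1* and 0.48 for *Nthl1* (largest edgeR adjusted p = 0.029). Within the second, *Ciapin1* (0.31), *Nubp1* (0.40), *Nubp2* (0.48) and *Nthl1* (0.75) were higher (largest adjusted p = 0.013), that is 4 of the 10, against 19.4% of tested genes. *Ercc2* (0.18, adjusted p = 0.21) and *Pold1* (0.23, adjusted p = 0.13) did not pass the test in the second run, which has 3 ID mice.

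The fold changes of all tested genes fell with exonic length, over 10 length classes of 1359 genes each. In the shortest class, 79.3% of genes were called higher and the middle value of their log2 fold changes was 0.34. In the longest class, these values were 2.50% and -0.53. Each of the 10 iron-sulfur genes was above the median of its own length class, by between 0.19 for *Nubp2* and 0.50 for *Pole*. Of the genes called higher, *Nthl1* was in the shortest class, and *Nubp2* in the next, where 66.8% were called higher. *Ciapin1*, with 4327 bp, was in a class of which 13.7% were called higher, and *Ercc2* and *Pold1* were in a class with 18.9%. *Ndor1* and *Pole*, which did not pass the test, were in classes of which 66.6% and 80.0% were called lower.

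A correction for gene length was then applied, in which a smooth trend of each mouse's values on exonic length was removed before testing. With it, all 10 genes were higher in ID hearts, against 31.5% of tested genes higher and 23.5% lower. Their log2 fold changes ran from 0.23 for *Nubp2* to 0.50 for *Ciapin1* (edgeR adjusted p = 0.00013 and 8.4e-06), with a median of 0.33 against 0.04 over all tested genes. *Pole* moved most, from -0.03 to 0.45 (standard error 0.11, adjusted p = 0.0012). *Ndor1* moved from 0.005 to 0.28 (standard error 0.06, adjusted p = 0.00047), *Rtel1* from 0.16 to 0.40 (0.09, adjusted p = 0.001) and *Mms19* from 0.10 to 0.28 (0.06, adjusted p = 0.00033). The short genes moved down, *Nthl1* from 0.59 to 0.30 (0.11, adjusted p = 0.024) and *Nubp2* from 0.46 to 0.23. *Nthl1* was no longer called without ID 1 or without ID 6, and the other 9 genes were called without any single mouse. The correction removes any trend on length, including one that a diet itself would cause.

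Within the runs of library numbers, the length-corrected log2 fold change of each of the 10 genes was above 0, but fewer passed the test. Over all tested genes the median was 0.05 in the first run and 0.02 in the second. The share of tested genes above 0 within the runs was not counted. In the first run 8 of the 10 were higher, against 25.1% of tested genes, and *Nubp1* (0.27, edgeR adjusted p = 0.083) and *Nthl1* (0.20, adjusted p = 0.31) did not pass. In the second run, with its 3 ID mice, 3 of the 10 were higher, against 15.4% of tested genes. These were *Ciapin1* (0.54, edgeR adjusted p = 0.006), *Nubp1* (0.30, adjusted p = 0.036) and *Nubp2* (0.25, adjusted p = 0.027). The other 7 genes were between 0.18 for *Ndor1* and 0.47 for *Nthl1* in the second run, with adjusted p between 0.057 for *Pold1* and 0.19 for *Pole*.

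**Figure D2:**
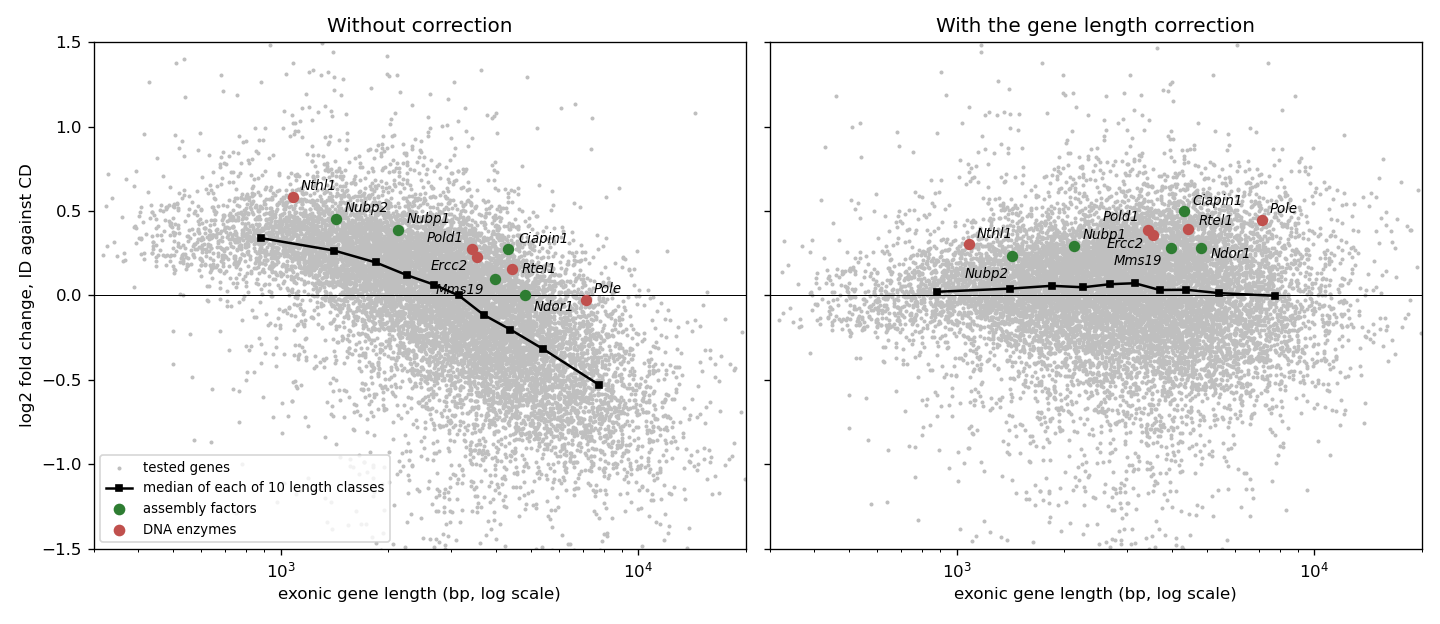
Log2 fold change (ID against CD) of each tested gene against its exonic length in bp (log scale), without correction (left) and with the gene length correction (right), as grey points with the median of each of the 10 length classes as black squares. All 10 iron-sulfur genes, in green for assembly factors and red for DNA enzymes, lie above the black line in both panels. In the left panel 124 genes, and in the right 103, have changes beyond 1.5 in size and are not drawn, nor are 25 genes outside the length axis.

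After the length correction, fold changes still rose with the GC content of the transcript, from a median of -0.18 in the lowest of 10 GC classes to 0.25 in the highest. Of the 10 genes, 9 had a GC content above the median of tested genes (50.9%), with *Pold1* highest at 60.4% and *Ercc2* next at 57.9%. The exception was *Pole*, at 48.8%. With length and GC corrected together, 5 of the 10 genes were higher, against 28.1% of tested genes, and 0 were lower (19.4% of tested genes). These were *Pole* (log2 fold change 0.48, standard error 0.11, edgeR adjusted p = 0.00096), *Ciapin1* (0.36, standard error 0.07, adjusted p = 0.00011), *Rtel1* (0.35, standard error 0.09, adjusted p = 0.0024), *Mms19* (0.23, standard error 0.05, adjusted p = 0.0014) and *Nubp2* (0.15, standard error 0.04, adjusted p = 0.003).

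The other 5 genes did not pass the test with both corrections. Their log2 fold changes were 0.20 for *Nthl1*, 0.16 for *Nubp1*, 0.13 for *Ercc2*, 0.10 for *Pold1* and 0.09 for *Ndor1*, with edgeR adjusted p between 0.052 and 0.12. *Ciapin1* and *Nubp2* were the 2 genes of the 10 called higher without correction, with the length correction and with both, as were 14.1% of tested genes. Over 20 fits of the mice, the uncorrected one and those with other normalizations, tests, covariates, corrections or runs, *Ciapin1* was called higher in 20, with a log2 fold change between 0.22 and 0.57, and *Nubp2* in 20, between 0.15 and 0.53. *Nubp1* was called higher in 18, *Ercc2* and *Pold1* in 17, *Nthl1* in 15, *Mms19* in 9, *Rtel1* in 8, and *Ndor1* and *Pole* in 6. None of the 10 was called lower in any of these 20 fits. The fits share the same mice and are not independent. Each called between 3914 and 9431 tested genes in either direction, and the share of genes called in every fit was not counted.

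**Figure D3:**
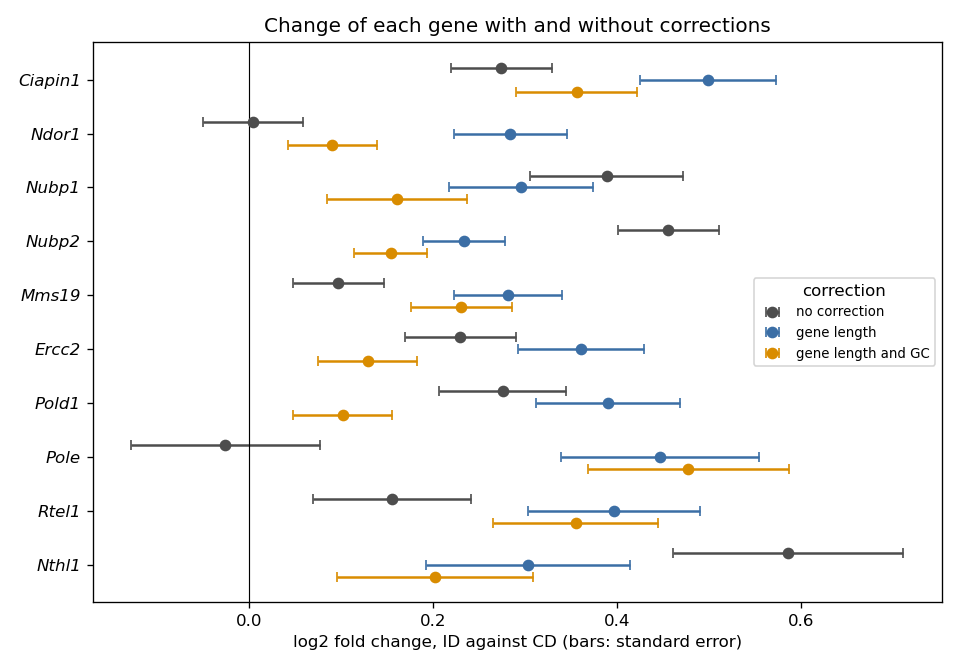
Log2 fold change (ID against CD, horizontal axis) of each gene without correction, with the gene length correction and with the gene length and GC correction, with standard errors as bars. *Pole* moves from -0.03 to 0.45 and 0.48, whereas *Nubp2* moves from 0.46 to 0.23 and 0.15.

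The balance between a gene and its partner was compared as the log2 ratio of their CPM within each mouse, which does not depend on how libraries are scaled. There were 7 pairs, tested by two-sided permutation with Benjamini-Hochberg adjustment over the 7. The ratio of the scaffold genes, *Nubp1* to *Nubp2*, was -1.11 ± 0.199 in CD and -1.18 ± 0.177 in ID hearts (SD, n = 10), a difference of -0.06 that was smaller than the spread between mice (permutation adjusted p = 0.53). In the electron transfer pair, *Ciapin1* to *Ndor1* was 1.38 ± 0.172 in CD and 1.66 ± 0.219 in ID hearts, with 9 of 10 ID mice above the CD mean (difference 0.27, permutation adjusted p = 0.022). With the length correction this difference was 0.22 (permutation adjusted p = 0.032). In the targeting complex, *Mms19* to *Ciao1* was -0.50 ± 0.110 in CD and -0.59 ± 0.133 in ID hearts (difference -0.09, permutation adjusted p = 0.19).

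*Ercc2* was set against *Ercc3*, the other helicase of TFIIH, which carries no cluster. The ratio was -0.58 ± 0.112 in CD and -0.39 ± 0.156 in ID hearts (SD, n = 10), and 9 of 10 ID mice were above the CD mean (difference 0.19, permutation adjusted p = 0.022). The length correction raised the difference to 0.32 (permutation adjusted p = 0.0019). No ratio was computed with the GC correction, under which the log2 fold change of *Ercc2* itself was 0.13 (edgeR adjusted p = 0.052). *Ercc3* itself had a log2 fold change of 0.04 (edgeR adjusted p = 0.42). *Nthl1* against *Ogg1*, a glycosylase for oxidised guanine without a cluster, rose by 0.27, which did not pass after adjustment (permutation adjusted p = 0.10, with 7 of 10 ID mice above the CD mean). Without CD 3 or without ID 5 it did pass, with a difference of 0.32 in each case (permutation adjusted p = 0.041 and 0.042).

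The polymerase ratios depended on the length correction. *Pold1* to its accessory subunit *Pold2* was -0.43 ± 0.155 in CD and -0.54 ± 0.0785 in ID hearts (SD, n = 10), with 0 of 10 ID mice above the CD mean, and the difference of -0.11 did not pass the test (permutation adjusted p = 0.12). With the correction the difference was 0.19 (permutation adjusted p = 0.032), in the opposite direction. *Pold1* has 3424 bp of exons and *Pold2* 1610 bp. *Pole* to *Pole2* differed by 0.07 (permutation adjusted p = 0.61), and by 0.70 with the correction (permutation adjusted p = 0.0019). *Pole2*, with 1695 bp against 7129 bp for *Pole*, rested on 9 to 21 read pairs per mouse.

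**Figure D4:**
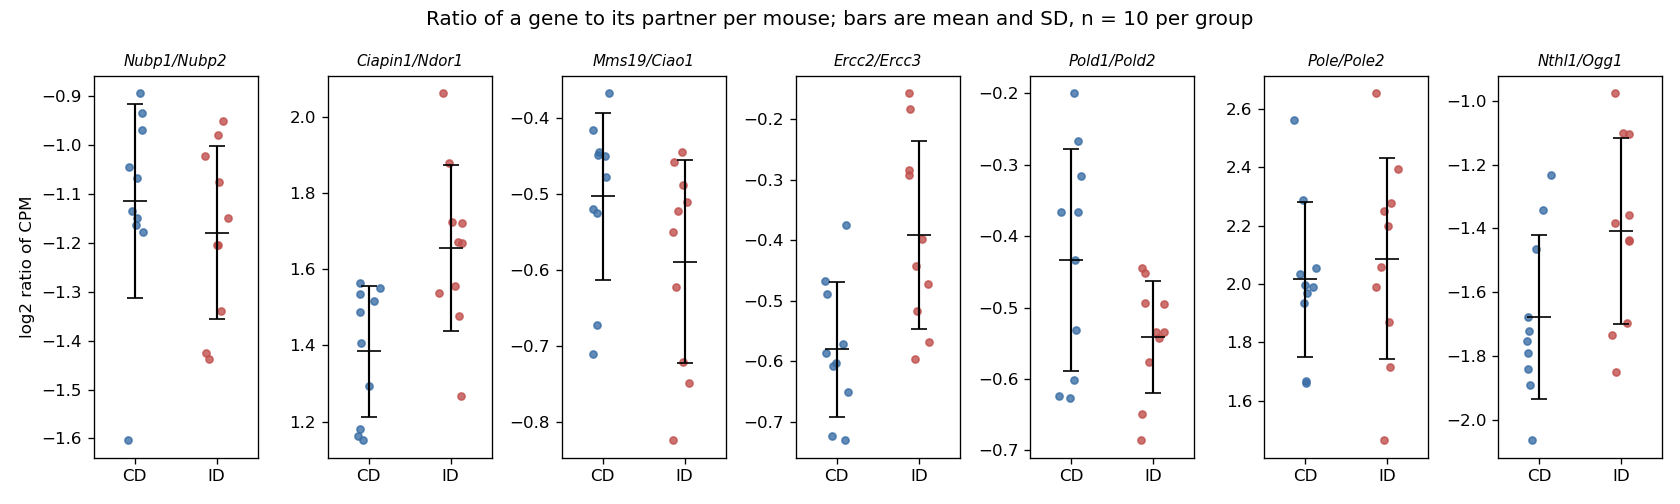
Log2 ratio of the CPM of a gene to that of its partner (vertical axes, different in each panel) in the individual CD and ID mice, without the length correction, with the mean and SD of 10 mice per group as bars. *Ciapin1* to *Ndor1* and *Ercc2* to *Ercc3* are higher in ID hearts, by 0.27 and 0.19, and the groups overlap in all 7 panels.

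Genes that start head-to-head with an iron-sulfur gene allow the 2 sides of one upstream region to be compared. *Tmem203*, whose start is 25 bp from that of *Ndor1* across the 24 bases given above, had a log2 fold change of 0.37 (standard error 0.09, edgeR adjusted p = 0.00069), against 0.005 for *Ndor1*. *Tsc2*, 53 bp from *Nthl1*, had 0.08 (standard error 0.05, adjusted p = 0.17), against 0.59 for *Nthl1*. *Coq9*, whose product takes part in coenzyme Q synthesis and which starts 77 bp from *Ciapin1*, had 0.16 (standard error 0.05, adjusted p = 0.0062), against 0.27 for *Ciapin1*. *Pxmp2*, 151 bp from *Pole*, had 0.28 (adjusted p = 0.00019), *Spsb3*, 324 bp from *Nubp2*, had 0.42 (adjusted p = 3.1e-07), and *Ubtd1*, 627 bp from *Mms19*, had 0.49 (adjusted p = 1.2e-06).

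In 5 of these 6 pairs the gene with the shorter exons had the higher log2 fold change, *Ciapin1* and *Coq9* being the exception. With the length correction, *Coq9* (-0.01), *Tmem203* (0.06) and *Pxmp2* (-0.004) did not pass the test (edgeR adjusted p = 0.93, 0.53 and 0.95), while *Ciapin1*, *Ndor1* and *Pole* were called higher. *Spsb3* (0.32, adjusted p = 1.4e-06) and *Ubtd1* (0.28, adjusted p = 0.00011) were called higher with the correction, as were *Nubp2* (0.23) and *Mms19* (0.28). *Tsc2* moved the other way, to 0.47 (adjusted p = 7.7e-06), against 0.30 for *Nthl1*. Differences within a pair were not tested.

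**Figure D5:**
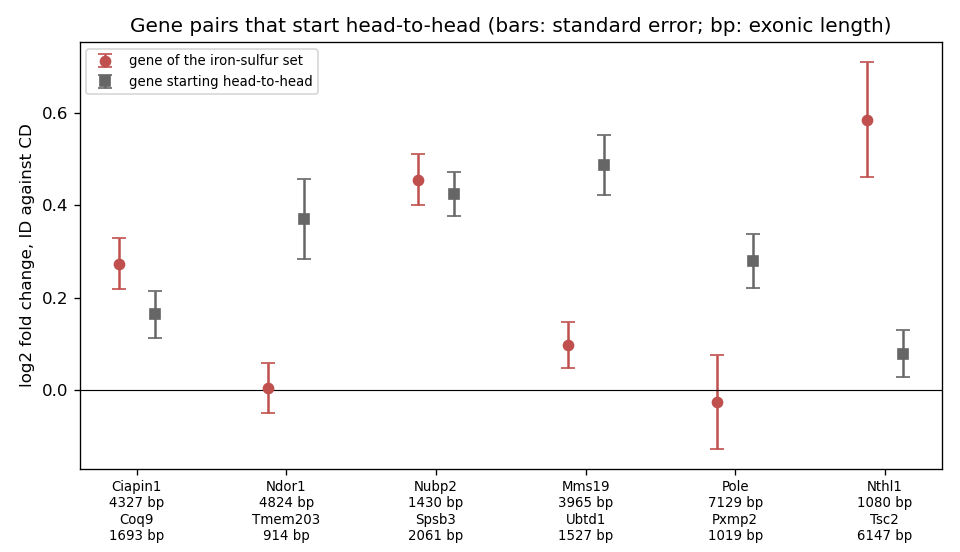
Log2 fold change (ID against CD, vertical axis) without correction of 6 iron-sulfur genes (red circles) and of the genes that start head-to-head with them (grey squares), with standard errors as bars and exonic lengths in bp under the names. The widest gap is that of *Nthl1* (0.59) and *Tsc2* (0.08), and the narrowest that of *Nubp2* (0.46) and *Spsb3* (0.42).

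The rest of the cytosolic assembly machinery was counted next. Of 8 further genes, 7 were higher in ID hearts and 1 was lower, with a median log2 fold change of 0.29 and a median exonic length of 1805 bp. Over all tested genes 35.0% were higher and 32.5% lower, and with the length correction 31.5% and 23.5%, and the counts of this list and those that follow are to be read against these shares. None of these lists was examined with the GC correction. The smallest adjusted p among the higher genes were those of *Narfl*, an iron-sulfur protein that links the early machinery to the targeting complex (0.38, edgeR adjusted p = 1.7e-06), *Bola2*, a partner of the glutaredoxin GLRX3 (0.58, adjusted p = 3e-06), and *Fam96a*, a subunit of targeting complexes (0.29, adjusted p = 2.3e-05). *Ciao1*, the partner of *Mms19*, rose by 0.18 (adjusted p = 0.00017). The lower gene was *Yae1d1*, an adaptor for the cluster of ABCE1 (-0.28, adjusted p = 6.3e-05). With the length correction 4 of the 8 were higher and 1 lower, with a median of 0.12. *Narfl* then had 0.36 (adjusted p = 6.4e-06), *Bola2* 0.18 (adjusted p = 0.017) and *Fam96a* 0.04 (adjusted p = 0.34), and *Yae1d1* was still lower (-0.17, adjusted p = 0.008).

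Other nuclear iron-sulfur enzymes moved in both directions. Of 10 genes, 2 were higher, 4 were lower and 4 did not pass the test, with a median log2 fold change of 0.004. *Mutyh*, the adenine glycosylase, rose by 0.41 (edgeR adjusted p = 0.0027), and *Elp3*, of the elongator complex, by 0.12 (adjusted p = 0.0046). Under the length correction *Mutyh* did not pass the test (0.24, adjusted p = 0.078), and *Elp3* did (0.18, adjusted p = 0.00069). *Rev3l*, the catalytic subunit of polymerase zeta, fell from 49.3 ± 8.45 to 24.6 ± 5.13 CPM (SD, n = 10; log2 fold change -1.005, adjusted p = 3.3e-07). *Pola1*, of polymerase alpha, had -0.52 (adjusted p = 7.2e-06), and the nuclease and helicase gene *Dna2* had -0.60 (adjusted p = 0.0034). *Rev3l* has 10665 bp of exons and *Pola1* 5347 bp, and with the length correction they were still lower, at -0.37 (adjusted p = 5.9e-05) and -0.19 (adjusted p = 0.039). *Dna2* was then at -0.41 (adjusted p = 0.047). In all, 2 of the 10 were then higher, *Elp3* and *Kif4* (0.58, adjusted p = 0.017; named after its values were seen), and 3 lower.

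The TFIIH partners of *Ercc2* numbered 9, of which 4 were higher, 1 was lower and 4 did not pass the test, with a median log2 fold change of 0.10. *Gtf2h4*, whose product anchors the helicase ERCC3, rose by 0.43 (edgeR adjusted p = 3.5e-06), and *Mnat1*, of the kinase module, by 0.30 (adjusted p = 0.00036). *Gtf2h5*, a small stabilizing subunit, rose by 0.25 (adjusted p = 0.00057), and with the length correction was at -0.02 (adjusted p = 0.72). *Cdk7*, the kinase, was the lower gene (-0.33, adjusted p = 2.2e-06), and with the length correction was higher (0.17, adjusted p = 0.0061). With that correction 4 of the 9 were higher and 1 lower.

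Of the 6 accessory subunits of polymerases delta and epsilon, 2 were higher, 1 was lower and 3 did not pass the test, with a median of 0.12. *Pold4* rose by 0.52 (edgeR adjusted p = 2.4e-06) and *Pold2* by 0.38 (adjusted p = 8.2e-06), while *Pold3* had -0.19 (adjusted p = 0.0045). These directions held with the length correction, at 0.21 (adjusted p = 0.0039), 0.19 (adjusted p = 0.0029) and -0.14 (adjusted p = 0.044), and *Pole3* was then also lower.

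Base excision repair genes without a cluster, the setting in which NTHL1 works, numbered 12, of which 10 were tested and *Neil3* and *Tdg* were below the filter. Of the 10, 6 were higher, 2 were lower and 2 did not pass the test, with a median of 0.24. *Xrcc1*, the scaffold of single-strand break repair, rose by 0.33 (edgeR adjusted p = 5.6e-06), the endonuclease gene *Apex1* by 0.37 (adjusted p = 7.1e-06) and the uracil glycosylase gene *Ung* by 0.35 (adjusted p = 7.5e-05). *Lig3* had -0.48 (adjusted p = 5.5e-07) and *Smug1* -0.17 (adjusted p = 0.0023). With the length correction 3 of the 10 were higher, *Xrcc1* (0.24, adjusted p = 0.00019) and *Ung* (0.26, adjusted p = 0.0021) among them, while *Apex1* was at 0.13 (adjusted p = 0.071) and did not pass, and 1 was lower, which was *Lig3* (-0.11, adjusted p = 0.023).

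Markers of other cells moved with the diet to different degrees. Of 10 erythroid markers, 6 were in the table, 3 were tested and all 3 were higher, while *Hba-a1* and *Hba-a2* were at 0 in every library. The summed level of these markers was between 51.2 and 126 CPM in CD and between 135 and 589 CPM in ID hearts. These ranges did not overlap, so a fit with the markers as a covariate cannot separate erythroid content from diet. With the mean of the tested erythroid markers as a covariate, the same 6 iron-sulfur genes were higher, against 25.6% of tested genes, with log2 fold changes between 0.28 for *Ercc2* and 0.73 for *Nthl1* (largest edgeR adjusted p = 0.029). With the length correction as well, 8 of the 10 were higher, against 20.9% of tested genes, and *Pole* (0.39, adjusted p = 0.11) and *Nthl1* (0.42, adjusted p = 0.09) did not pass the test.

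Of 12 markers of proliferating cells, 11 were tested, with 5 higher and 1 lower and a median log2 fold change of 0.24. Corrected for length, 6 were higher and 2 lower, with a median of 0.31 beside 0.33 for the 10 iron-sulfur genes, and *Mki67* moved from 0.03 to 0.64 (edgeR adjusted p = 0.00091). Their summed level overlapped between the groups, at 183 to 242.9 CPM in CD and 188 to 286 CPM in ID hearts. With their mean as a covariate and no length correction, 7 of the 10 iron-sulfur genes were higher, against 34.4% of tested genes, the seventh being *Mms19* (0.13, edgeR adjusted p = 0.017), and with the length correction 10 were. In that last fit 7382 of the 13590 tested genes were called, 41.5% of them lower. Leukocyte markers (5 of 6 tested, 3 higher and 1 lower) summed to 310 to 365 CPM in CD and 320.3 to 392 CPM in ID hearts. Endothelial markers (6 tested, 2 higher and 3 lower) summed to 1553 to 1746 and 1428 to 1664 CPM, and fibroblast markers (6 tested, 1 higher and 1 lower) to 1478 to 1831 and 1440 to 1736 CPM. The part of leukocytes, endothelial cells and fibroblasts in the changes of the 10 genes was not tested.

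For each of the 10 genes, the tested gene with the most similar course over the 20 mice was sought, by the root mean square difference of log2 CPM after centring each gene on its CD mean. It was *Cycs* for *Ciapin1* (0.06), *Ppp1r16a* for *Nubp2* (0.06), *Arpc1b* for *Nubp1* (0.14), *Taok2* for *Ndor1* (0.07) and *2610301G19Rik* for *Mms19* (0.06). Among the DNA enzymes it was *Dus3l* for *Ercc2* (0.07), *Lmf2* for *Pold1* (0.06), *Serpinb6b* for *Pole* (0.17) and *Metrn* for *Nthl1* (0.13). For *Rtel1* it was *Mms19* (0.13), the 1 case in which the nearest gene was itself one of the 10.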

How the data were processed

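RNA-seq of whole hearts from 10 CD and 10 ID mice was analysed. Per the study's methods and the file header, STAR was the aligner (mm10), samtools took out PCR duplicates, and featureCounts 1.4.5-p1 counted fragments over the exons of each gene symbol, ignoring strand. The authors deposited these raw counts for 23420 genes, with exon positions and lengths. Mice were grouped by their labels. The members and lists were chosen with earlier results of these data known. Named are the 10 genes, their 7 partners, up to 3 called genes per direction and list with the smallest adjusted p, neighbours and the most similar gene.

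Genes reaching 1 CPM in 10 or more mice were kept (13590, with 9830 excluded) and tested in R 4.3.3 with edgeR 4.0.16 (TMM, quasi-likelihood test, Benjamini-Hochberg over all tested genes, adjusted p below 0.05). DESeq2 1.42.0 was an alternative. Standard errors are the log2 fold change over the square root of the F statistic. Log2 CPM used a prior count of 2. The length correction subtracted a loess curve (span 0.5, degree 1) per mouse and was entered as offsets. GC content came from GENCODE transcripts (99.2% of tested genes). Covariates for markers and library numbers were added after the values were seen. Ratios used 100000 resamples (scipy 1.17.1). Steps were tested on simulated data with 200 changed genes. With the length trend of the data added, which counts as no change there, 96.8% to 98.2% of uncorrected calls were false. With the length correction, 2.1% to 7.2% of calls were false. The precision of low genes is limited by their counts.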

Additional observations from a re-analysis of the deposited data

How the results depend on the processing

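Of 700 comparisons of a value with an alternative, over 43 alternatives, 641 were rated the same. For a fold change or ratio this meant the same side of the threshold, and the same direction unless neither fit passed. *Ndor1*, at 0.005 without correction, was thus rated the same at -0.10 within the second run. For a count it meant staying within its limits. The count of iron-sulfur genes called higher, with the share of tested genes in brackets, was 6 without correction (35.0%). It was 10 with the gene length correction (31.5%), alone or with the library number run or the proliferating marker mean added. These 2 additions called 7434 and 7382 tested genes, 42.5% and 41.5% of them lower. The count was 5 with length and GC corrected together (28.1%). It was 8 with the length correction and the erythroid marker mean (20.9%) or with the length correction within the first run (25.1%). Without the length correction it was 4 within the second run (19.4%), and 7 with the proliferating marker mean (34.4%). It was also 7 without ID 2, ID 3 or ID 4, where 9173, 9165 and 9118 tested genes were called in either direction. It was 3 with the correction within the second run of library numbers (15.4%), which holds 8 mice. It was 8 with library sizes only, where *Mms19* (0.15, adjusted p = 0.009) and *Rtel1* (0.21, adjusted p = 0.039) also passed. With library sizes only, 9431 tested genes were called, 41.8% of them lower. Of 13590 tested genes, 9177 were called, against 4854 with the length correction and the erythroid marker mean together and 5906 within the second run. With the correction, 5836 were called within the first run and 3914 within the second. *Pole* turned from -0.03 to 0.45 with the length correction, 0.48 with GC added, 0.44 with the replicate block added, 0.43 with the library number run, 0.41 with the proliferating marker mean, and 0.50 within the first run. *Pold1* to *Pold2* turned to 0.19 and *Pole* to *Pole2* rose to 0.70 with the length correction. Leaving out single mice, *Nthl1* to *Ogg1* ranged from 0.22 to 0.32. The causes were not tested.

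Whether replicate numbers pair the mice was not settled. Same-numbered mice correlated between -0.28 and 0.26 in their deviations from the group means, and 3 of 10 CD mice correlated best with their own number. Numbers 1, 2 and 3 lie in the second run of library numbers in both groups, so this check mixes pairing with run. With the number as a block, 8912 genes and 6 of the 10 were called, and with the length correction as well 6990 genes and 9 of the 10, where *Nthl1* had 0.30 (adjusted p = 0.065). Of the 8912 genes 48.6% were lower, and of the 6990 genes 43.1%. Depth limits *Nthl1* and *Pole* most.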

Other observations

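Iron-sulfur enzymes of the cytosol that do not act on DNA, also recipients of the cytosolic machinery, were measured in the same hearts. Of 11 genes, 1 was higher in ID hearts, 4 were lower and 6 did not pass the test, with a median log2 fold change of 0.01 against 0.02 over all tested genes, of which 35.0% were higher and 32.5% lower. *Tyw1*, which makes wybutosine in tRNA, rose by 0.23 (edgeR adjusted p = 0.006). *Abce1*, the ribosome recycling factor, fell from 167 ± 10.4 to 130 ± 14.7 CPM (SD, n = 10; log2 fold change -0.37, adjusted p = 5.5e-06), with 0 of 10 ID mice above the CD mean. *Dpyd*, of pyrimidine breakdown, had -0.71 (adjusted p = 9.4e-06) and *Aox1*, aldehyde oxidase, had -0.53 (adjusted p = 5.3e-05). *Aco1*, which is both cytosolic aconitase and the iron regulatory protein IRP1, had 134 ± 4.82 CPM in CD and 135 ± 8.94 CPM in ID hearts (adjusted p = 0.75). It is named here after its values were seen.

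With the gene length correction, 2 of the 11 were higher and 4 lower, against 31.5% and 23.5% of tested genes. *Tyw1* had 0.67 (edgeR adjusted p = 1.8e-05) and *Aco1* 0.24 (adjusted p = 0.00012), while *Abce1* (-0.21, adjusted p = 0.0006), *Dpyd* (-0.48, adjusted p = 0.00021) and *Aox1* (-0.30, adjusted p = 0.0063) were still lower. Their median was then -0.05, against 0.04 over all tested genes and 0.33 over the 10 assembly and DNA enzyme genes. These 11 genes were not examined with length and GC corrected together. Under that correction 5 of the 10 assembly and DNA enzyme genes were higher, against 28.1% of tested genes.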
